A study of Mus musculus with 2 samples.

Results

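Kinesins and cytoplasmic dynein are the motors that carry cargo along microtubules. The genes described here are those whose symbol begins with Kif and a number, Kifc, Klc, Dync1, Dync2, Dynl or Dctn and a number, and that have at least 1 protein-coding transcript. This gave 69 of 55536 genes. They comprise kinesin heavy chains, kinesin light chains, dynein chains and the numbered dynactin subunits. A further 5 symbols matched the pattern but had no protein-coding transcript and were left out. The gene Kif1bp also matched, although its product binds kinesins and is not a motor.

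The material was hippocampus of adult B6NCrl mice, described as C57BL/6 and male, at 6 months of age. Libraries of polyadenylated RNA were made from 20 ng with Nextera tagmentation, in which a transposase cuts the DNA copies and attaches adapters. There was 1 group of 2 libraries, labelled biological replicates 1 and 2 and called library 1 and library 2 here. The labels give both the same donor identifier and separate biosample identifiers, so their spread may be partly technical. No treatment, mutation or second condition was included, so levels were described with their spread over the libraries and no test between conditions was possible.

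Most kinesins walk towards the plus ends of microtubules, which in axons lie away from the cell body, and cytoplasmic dynein 1 walks back towards the minus ends. Dynein needs dynactin, a large complex, and an adaptor protein to move cargo over long distances. In neurons these motors carry vesicles, mitochondria and RNA along axons and dendrites, while another set of kinesins builds the mitotic spindle and separates chromosomes in dividing cells.

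Of the 69 genes, 47 reached at least 1 TPM in both libraries. Levels come from the deposited gene tables of a first quantification program, and a second program gave its own transcript estimates for the same libraries. TPM is a share of all transcripts, scaled for transcript length and for the library, so that levels of different genes can be set side by side. A further 21 stayed under 1 TPM in both libraries, and 1 gene, Kif1c, lay on either side of the line. The share of detected genes was 68.1%, against 56.9% of the 21901 protein-coding genes, and the median level of detected genes was 33.0 TPM against 13.2 TPM. The motor genes together held 3586 TPM in library 1 and 3555 TPM in library 2, a mean of 3571 ± 21.6 TPM (SD, n = 2), and took 0.636% and 0.631% of the expected counts.

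The libraries had similar depth, with 38921671 and 39499357 expected counts, and the biological coefficient of variation over 16640 genes was 16.6%, or 0.222 on the log2 scale. Markers of neurons, oligodendrocytes, astrocytes and microglia were present in both libraries. Summed levels were 2931 and 3478 TPM for 6 neuron markers, 3484 and 3880 TPM for 5 oligodendrocyte markers, 1899 and 1886 TPM for 5 astrocyte markers, and 333 and 353 TPM for 5 microglia markers. Their highest members were Snap25, Mbp, Aldoc and C1qa. The libraries stood apart in 2 marker lists, those of choroid plexus and ependymal cells. Choroid plexus markers summed to 15256 TPM in library 1 and 130.5 TPM in library 2, all 6 (Ttr, Kcnj13, Folr1, Kl, Otx2 and Clic6) were over 1 log2 unit higher in library 1, and their median log2 ratio was 4.0. Ttr, the thyroxine carrier made by choroid plexus, had 14956 and 117 TPM. Ependymal markers, of the ciliated cells that line the ventricles, summed to 128 and 87.9 TPM, and all 6 were higher in library 1, with a median log2 ratio of 0.377. In bulk tissue, fewer cells of a type and less RNA per cell cannot be told apart.

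The adult hippocampus libraries held the transport motors at high levels and the kinesins of cell division at very low ones. Dynein light chains had the highest class sum, 1114 TPM in library 1 and 1045 TPM in library 2, followed by dynactin with 899.9 and 894 TPM. Kinesin-1 heavy chains held 418 and 439 TPM and their light chains 308 and 323 TPM. Next came the remaining dynein-1 chains with 262 and 261 TPM, kinesin-3 with 210.0 and 201 TPM, kinesin-2 with 123 and 128 TPM, and the other kinesins with 115 and 118 TPM. Kif1bp alone had 48.8 and 58.2 TPM. The lowest sums were 35.8 and 38.4 TPM in kinesin-4, 36.0 and 32.2 TPM in dynein-2, and 16.0 and 16.6 TPM over 15 kinesins of dividing cells. The order of the 12 classes was the same in both libraries except that kinesin-4 and dynein-2 changed places.

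**Figure D1:**
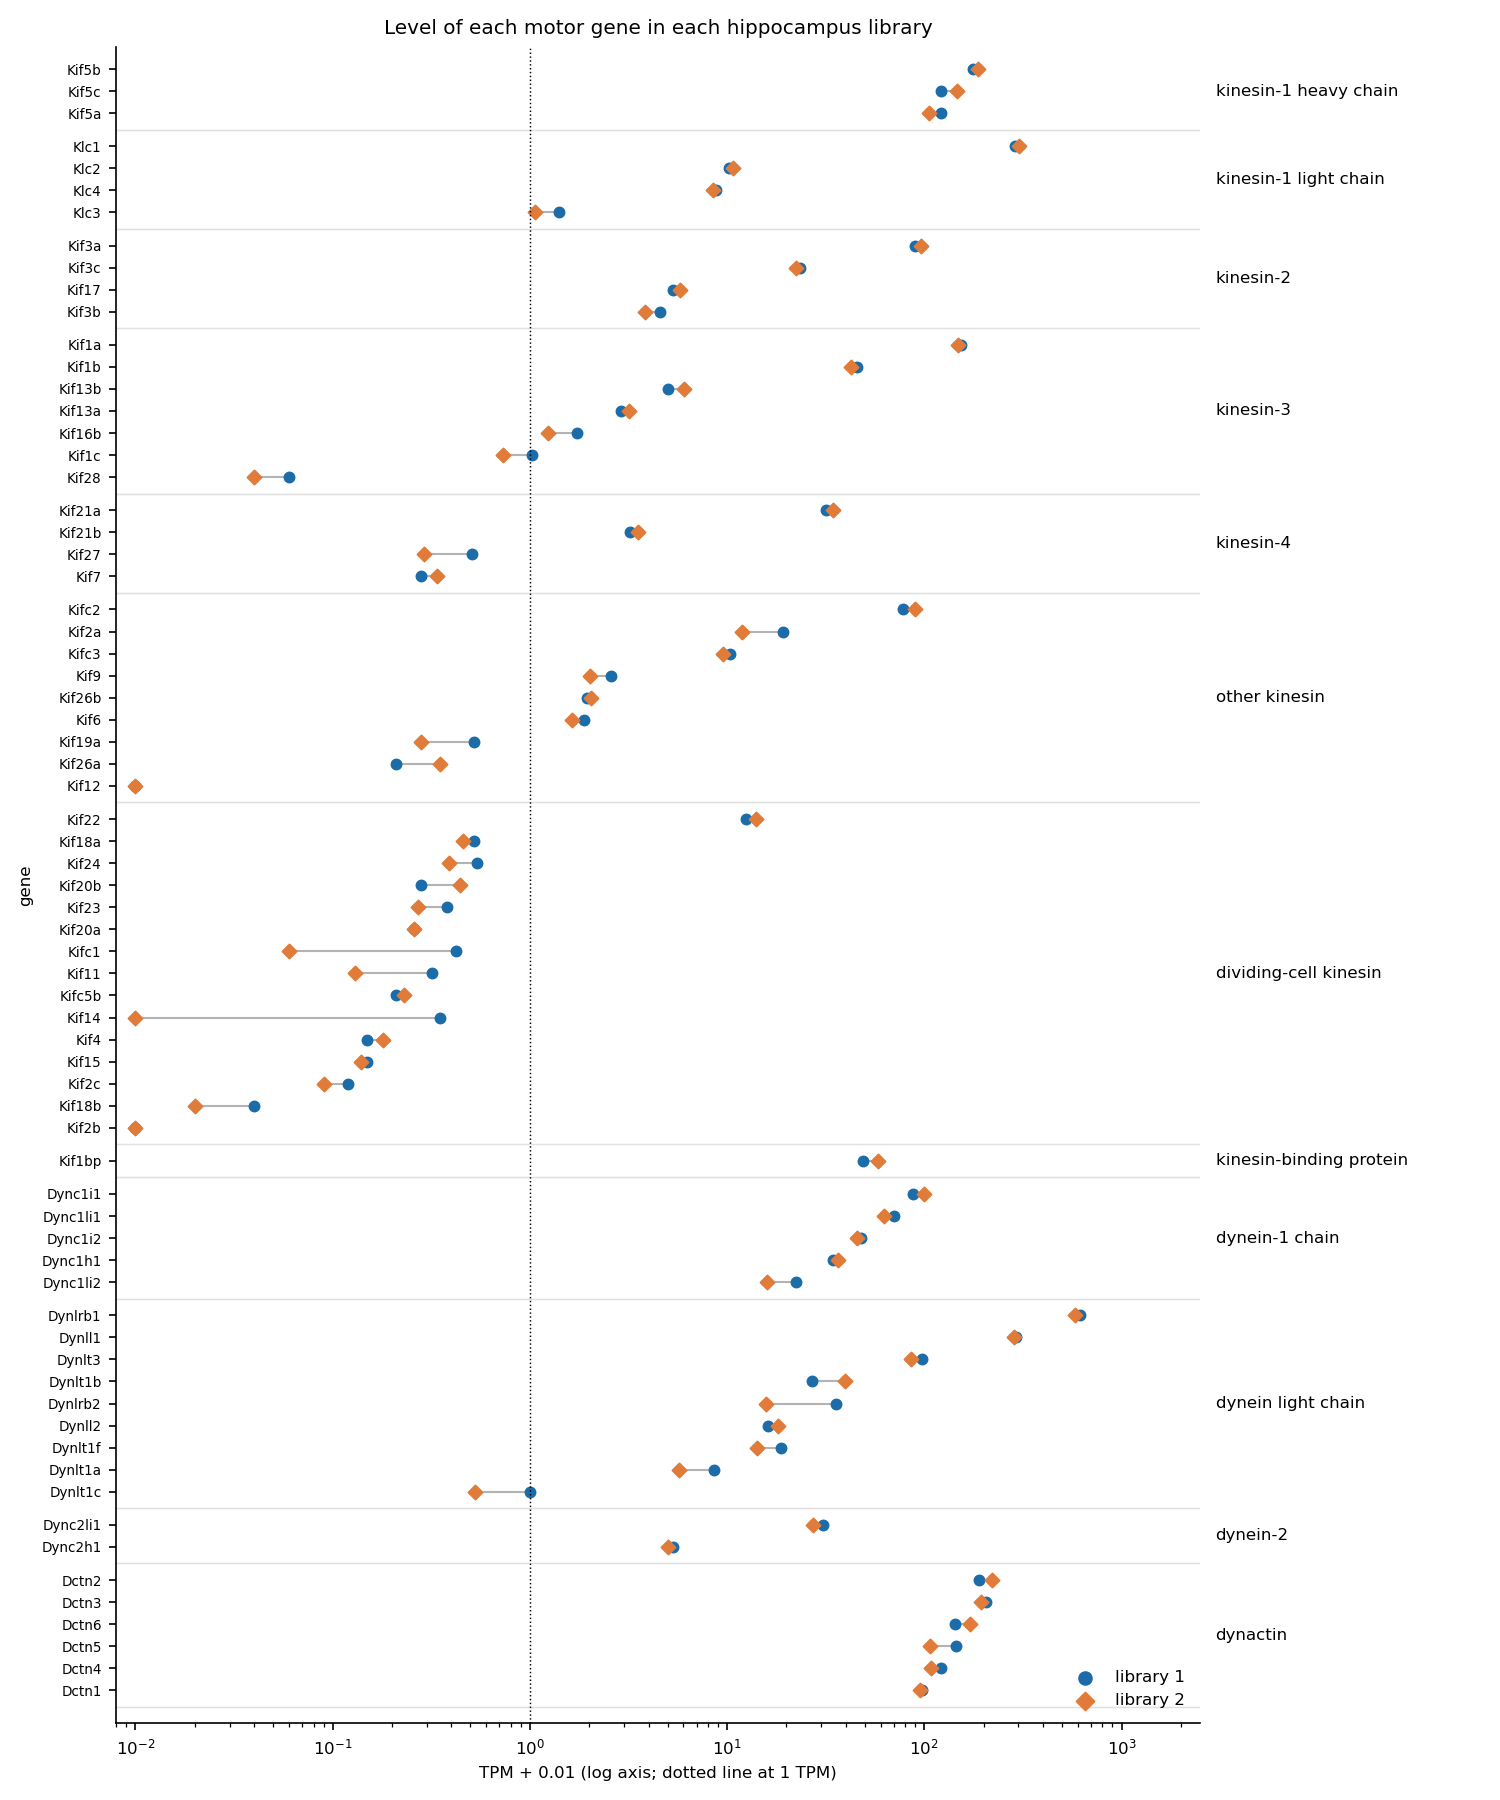
Each row is 1 motor gene, grouped by class, and the horizontal log axis gives TPM with 0.01 added. Circles are library 1, diamonds library 2, and the dotted line marks 1 TPM. All members of kinesin-1, kinesin-2, dynein-1, dynein-2 and dynactin lie to the right of the line, and 14 of the 15 dividing-cell kinesins lie to its left.

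Kinesin-1 is a tetramer of 2 heavy chains, which hold the motor domain, and 2 light chains, which bind cargo. All 3 heavy chain genes were expressed at more than 100 TPM. Kif5b, the broadly expressed heavy chain, had 176 TPM in library 1 and 186 TPM in library 2. Kif5c, enriched in neurons, had 121 and 147 TPM. Kif5a, the other neuronal heavy chain, had 121 and 106 TPM. The library ranges of Kif5a and Kif5c met at 121 TPM, and that of Kif5b lay above both.

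The order of the heavy chains depended on which transcripts were counted. Because TPM is scaled for length, a short transcript can hold a large share of a gene's TPM from few reads. This holds for all transcript shares given here, and reads per transcript were not examined. For Kif5b, 67.1% and 68.3% of the TPM was assigned to Kif5b-202, a transcript of 2006 bases whose coding sequence is annotated as lacking an end. The complete coding transcript of 6032 bases, Kif5b-201, held 52.7 and 51.9 TPM. The complete transcripts of Kif5c held 116 and 125 TPM and those of Kif5a 121 and 106 TPM. Counting complete coding transcripts only, Kif5b was therefore the lowest of the 3, with a mean of 52.3 ± 0.544 TPM (SD, n = 2). The second quantification program gave the same split, with 24.8% and 20.6% of Kif5b in the complete transcript.

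Among the light chains, Klc1 held nearly all of the class. Its levels were 288 and 303 TPM. Klc2 had 10.2 and 10.8 TPM, Klc4 had 8.82 and 8.49 TPM, and Klc3 had 1.40 and 1.05 TPM. The ranges of these 4 genes over the libraries did not overlap. Klc3 was the member just above 1 TPM in both libraries, and Kif1c, a kinesin-3 of Golgi-derived and other vesicles, was the one just outside, with 1.01 and 0.72 TPM.

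Klc1 is known for light chain forms that differ in the carboxy-terminal part, where cargo specificity lies. Klc1-202, with a coding sequence of 1626 bases, held 54.4% and 54.7% of the gene's TPM. Klc1-203, with 1680 coding bases, held 23% and 22.6%, and Klc1-201, with 1848 coding bases, held 10.6% and 10.3%. The shares of the 3 forms thus kept one order in both libraries, and the second program gave the same order, with 26.1% and 26.0% in Klc1-203. Klc1-203 differs from Klc1-202 by added coding segments of 27 bases (chr12:111789460-111789486, mm10) and 30 bases (chr12:111793649-111793678), and lacks 3 coding bases that Klc1-202 has. Klc1 overlaps exons of Xrcc3 on the other strand, and whether the counting used strand is not given in the sources used here. Exons of other genes, on either strand, overlap 24 of the 69 members, and only some overlaps are named here. Kif5b, Kif3c and Dctn6 also have such overlaps on the opposite strand.

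Kinesin-2 motors form a heterotrimer of Kif3a with Kif3b or Kif3c and the accessory protein Kifap3, or a homodimer of Kif17, which carries NMDA receptor vesicles in dendrites and also enters cilia. Kif3a had 89.3 TPM in library 1 and 96.2 TPM in library 2. Its heavy chain partners were lower, with 23.4 and 22.3 TPM for Kif3c and 4.55 and 3.84 TPM for Kif3b. Kif17 had 5.32 and 5.78 TPM. Kifap3 stood at 84.0 and 86.1 TPM, near the gene level of Kif3a. Complete coding transcripts of Kif3a held 59.0 and 60.2 TPM, and the transcript types of Kifap3 were not examined. In both libraries Kif3c exceeded Kif3b.

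Of the Kif3a level, 33.2% and 37.3% was assigned to Kif3a-206, a transcript of 770 bases annotated for nonsense-mediated decay. The leading coding transcript, Kif3a-201, held 39.4% and 36.1%, so in the first program the leading transcript changed between the libraries. In the second program Kif3a-206 led in both, with 34.8% and 36.5% against 30.5% and 24.7% for Kif3a-201. In Kif3c the programs disagreed on the leading transcript. The first program put 40.1% and 43.1% in Kif3c-201 and the second put 42.0% and 52.7% in Kif3c-205. Both have the same coding sequence of 2388 bases. The programs also differed on a shorter coding form, Kif3c-204, with 834 coding bases. It held 23.5% and 13.5% in the first program and 10.7% and 0% in the second.

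Kinesin-3 motors move singly or in pairs and are the main carriers of synaptic vesicle precursors. Kif1a, which carries these precursors in axons, had 154 and 148 TPM. Kif1b, which has forms for vesicles and for mitochondria, had 45.6 and 42.4 TPM. Kif13b followed with 5.0 and 6.01 TPM. The remaining members lay between 0.03 TPM, for Kif28 in library 2, and 3.17 TPM, for Kif13a in library 2. Kif1a and Kif1b alone therefore made up most of the class in both libraries.

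Kif1b was almost entirely the long form. Kif1b-203, with 5448 coding bases, held 97.5% and 92.1% of the TPM, and Kif1b-201, the form of 3450 coding bases, held 2.24% and 1.82%. Kif1a was spread over more transcripts. Kif1a-204, with 5091 coding bases, held 35.6% and 37.6%. A processed transcript of 570 bases, Kif1a-208, held 24.7% and 27.9%, and an incomplete one of 528 bases, Kif1a-206, held 19.0% and 16.5%. Complete coding transcripts held 56.1% and 55.5% of Kif1a.

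Kinesin-4, counted here without Kif4, was led by Kif21a, a regulator of microtubule growth in neurons. Kif21a had 31.8 TPM in library 1 and 34.2 TPM in library 2. Kif21b had 3.21 and 3.52 TPM, of which a mean of 27.0% ± 2.81 (SD, n = 2) was in complete coding transcripts. Kif27 had 0.50 and 0.28 TPM, and Kif7, a component of Hedgehog signalling in cilia, had 0.27 and 0.33 TPM.

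Among the other kinesins, Kifc2, a motor of the carboxy-terminal type found in neurons, had 77.9 and 90.1 TPM. Kif2a, which removes tubulin from microtubule ends and limits axon branches, had 19.2 and 11.9 TPM. Kifc3 had 10.4 and 9.52 TPM. Kif12 had 0 reads in both libraries. A count of 0 allows up to 3 reads, or 0.0771 and 0.076 CPM (reads scaled to the library total), for counting error only. The library gap in Kif2a was smaller in reads (2045 and 1733 expected counts) than in TPM. An incomplete transcript of 288 bases, Kif2a-205, held 5.71 TPM in library 1 and 0.05 TPM in library 2 (5.67 and 2.60 TPM in the second program), whereas the complete coding transcripts of Kif2a held 70.3% and 99.3%. Kifc2 shares exonic sequence with Cyhr1 on the opposite strand.

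The kinesins of dividing cells, which build the spindle and the midbody, had very low levels. Of 15 genes, only Kif22, which pushes chromosome arms, reached 1 TPM in both libraries. The other 14 stayed at or below 0.53 TPM in the gene tables. Kif4 (0.14 and 0.17 TPM) and Kif14 (0.34 and 0.00 TPM) were counted in this class and not with kinesin-4 and kinesin-3. Kif18a, a regulator of spindle length, had 0.51 and 0.45 TPM and Kif24 had 0.53 and 0.38 TPM. Kif11, the motor that separates the spindle poles, had 0.31 and 0.12 TPM, and Kif23, a subunit of centralspindlin at the midbody, had 0.37 and 0.26 TPM. Kif2b had 0 reads in both libraries. In a list of 12 other genes of cell division, 3 reached 1 TPM in both libraries, with sums of 12.2 and 12.5 TPM. Its highest members were Incenp with 4.46 and 6.98 TPM, Prc1 with 2.05 and 1.43 TPM and Aurka with 1.41 and 1.18 TPM, and its lowest, Bub1, had 0.03 and 0.00 TPM.

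Most of the TPM of Kif22 was not assigned to its full coding transcript. Kif22 (chr7:127027729-127042471, minus strand, mm10) had 12.4 and 14 TPM from 106 and 133 expected counts. A retained-intron transcript of 295 bases, Kif22-205, held 79.7% and 82.7% of this TPM, while the complete coding transcript Kif22-201 held 0.59 and 0.93 TPM. By that measure all 15 dividing-cell kinesins were under 1 TPM. Kif22 overlaps exons of Gm31749 on the other strand, and Kif22-ps, its pseudogene, had 0 reads in both libraries.

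The programs disagreed for 2 further members of this class. The first program gave Kif15 0.14 and 0.13 TPM and the second gave it 2.72 and 2.62 TPM, with log2 ratios of 3.55 and 3.56 on TPM with 0.1 added. In the second program 64.1% and 77.0% of Kif15 was a retained-intron transcript, Kif15-213. The second program gave Kif24 2.82 and 2.68 TPM, of which 90.3% and 96.4% was the processed transcript Kif24-204. In both genes most of the second program's level was thus assigned to transcripts that are not annotated as coding. Over all members the median log2 ratio of the second program to the first was -0.180 in library 1 and -0.200 in library 2. Kifc1 and Kifc5b, and Kif4 and the pseudogene Kif4-ps, may share reads, and their sequence identity was not computed here. Kif4-ps had 0 reads in both libraries.

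RefSeq promoter windows, from 250 bases before to 50 bases after each gene start (GRCm38.p6), were matched for 51 of the 69 genes. Because the dividing-cell kinesins shared a low level, these windows were searched for the letters TTTGAA on both strands (TTCAAA is the reverse complement), the core of the cell cycle homology region of mitotic genes. The letters were found for 11 of 14 dividing-cell kinesins (78.6%) and for 4 of the 37 other members (10.8%), against 20.2% of 27025 genes. A match describes the letters in the window and is not a bound site. The matched stretches of Kifc1 and Kifc5b were nearly alike, so they may not be separate cases. Relative to the gene start, the letters printed below begin at -19 in Kif11, -234 in Kif15, -215 in Kif22 and 2 in Kif23. Kif15 and Kif22 also had matches nearer the start, at -19 and -17, which are not printed. Examples are printed in the direction of the gene, with the searched letters or their reverse complement in capitals, from Kif11 (chr19:37376351-37376380, plus strand), Kif15 (chr9:122950835-122950864, plus strand), Kif22 (chr7:127042618-127042647, minus strand) and Kif23 (chr9:61946780-61946809, minus strand).
Kif11: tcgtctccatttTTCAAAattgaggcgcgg
Kif15: gccgactctctcTTTGAAgcgggacaggaa
Kif22: ccaacctggcaaTTCAAAagcctgaaagtg
Kif23: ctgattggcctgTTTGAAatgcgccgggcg

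Cytoplasmic dynein 1 is built from a heavy chain with the motor, intermediate chains, light intermediate chains and light chains. The intermediate chain Dync1i1, which is enriched in neurons, had 87.1 TPM in library 1 and 100.1 TPM in library 2. The light intermediate chain Dync1li1, which binds adaptors, had 70 and 62.1 TPM. The broadly expressed intermediate chain Dync1i2 had 48.0 and 45.8 TPM. The heavy chain Dync1h1 had 34.6 and 36.6 TPM, and Dync1li2 had 22.2 and 16.0 TPM. The ranges of these 5 genes did not overlap.

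The heavy chain level also rested partly on a short transcript. Dync1h1-204, a retained-intron transcript of 427 bases, held 51.6% and 47.0% of the gene's TPM in the first program and 34.9% and 23% in the second. The complete transcript Dync1h1-201, of 14342 bases, held 16.8 and 19.1 TPM. With such unlike lengths, near-equal TPM does not mean near-equal reads, and most of the reads may belong to the long transcript. Dync1h1 overlaps exons of Gm17111 and Gm35558 on the opposite strand.

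The light chains are small dimeric proteins that bind the intermediate chains, and some also have partners outside dynein. Dynlrb1, of the roadblock family, was the highest of all 69 genes with 617 and 581 TPM. Dynll1 had 293 and 284 TPM and Dynlt3, of the Tctex family, had 97.7 and 86.1 TPM. Their close relatives were lower. Dynll2 had 16.2 and 18 TPM, although its coding sequence of 267 bases matched that of Dynll1 at 81.3% of positions. Dynlrb2, which matched Dynlrb1 at 71.9% of 288 coding positions, had 35.5 and 15.7 TPM.

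In Dynll1, the leading transcript was not coding. Dynll1-203, a processed transcript of 539 bases, held 51.0% and 55.6% of the TPM, and complete coding transcripts held 33.8% and 31.2%. By complete coding transcripts Dynll1 had a mean of 93.9 ± 7.24 TPM (SD, n = 2) and ranked 9 instead of 3 among the members.

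Dynlt1 exists as 4 genes on chromosome 17 with near-identical coding sequences, whose separate levels are uncertain. Sequence outside the coding part was not compared. The coding sequences of Dynlt1a, Dynlt1c and Dynlt1f were identical over 339 bases, and that of Dynlt1b differed from them at 1 position, number 21 from the start of the coding sequence. The first 45 coding bases of a member of each type show it in capitals (GENCODE M21).
Dynlt1a: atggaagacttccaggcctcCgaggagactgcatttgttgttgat
Dynlt1b: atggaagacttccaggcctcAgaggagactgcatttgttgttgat

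The reads of these copies were divided unequally and not alike in the 2 libraries. Dynlt1b had 26.9 and 39.5 TPM and was higher in library 2. Dynlt1f had 18.7 and 14.2 TPM, Dynlt1a 8.61 and 5.71 TPM, and Dynlt1c 0.99 and 0.52 TPM, and all 3 were higher in library 1. For Dynlt1a the second program gave 4.22 and 2.61 TPM, lower by 1.01 and 1.10 on the log2 scale. The pseudogene Dynlt1-ps1 had 1.69 and 2.19 TPM. By the second program it had 8.13 and 5.42 TPM.

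Dynein-2 is the return motor inside cilia. Its light intermediate chain Dync2li1 had 30.7 and 27.2 TPM and its heavy chain Dync2h1 had 5.33 and 5.01 TPM. All 18 genes of a list of other dynein-2 subunits and intraflagellar transport proteins, the cargo trains of cilia, had at least 1 TPM in both libraries, with sums of 469.6 and 428 TPM. The highest were Ift20 with 111 and 109 TPM, Ift46 with 52.1 and 48.5 TPM and Ift57 with 43.3 and 35.5 TPM, and the lowest was Traf3ip1 with 1.66 and 1.29 TPM. Axonemal dyneins, the motors that bend motile cilia, were lower, and 7 of 18 reached 1 TPM in both libraries. Dnal1 with 16.2 and 16.9 TPM, Dnaic1 with 6.15 and 4.75 TPM and Dnah7a with 4.93 and 4.64 TPM led that list, and Dnah17 was lowest at 0.00 TPM in both. Dnah7a had 94.2 and 88.4 expected counts, fewer than the 159 and 139 of Dnah5, which had 0.34 and 0.29 TPM. The transcripts behind these levels were not examined.

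All 6 numbered dynactin genes had levels near or above 100 TPM. Dctn2, the dynamitin of the shoulder, had 189 and 220 TPM, and Dctn3, also of the shoulder, had 206 and 195 TPM. The pointed-end subunits Dctn6, Dctn5 and Dctn4 had 142 and 170 TPM, 144 and 107 TPM, and 121 and 109 TPM, in that order. Dctn1, the large arm that binds microtubules and dynein, had 97.8 and 95 TPM. The ranges of Dctn2 and Dctn3 overlapped, as did those of Dctn5 with Dctn6 and with Dctn4.

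The remaining dynactin subunits, which form the actin-like filament and its caps, summed to 821 and 889 TPM over 6 genes, all above 1 TPM. Capzb had 297 and 325 TPM, Capza2 had 291 and 295 TPM, Actr1b had 92.4 and 98.1 TPM, and the lowest, Capza1, had 20.1 and 19.1 TPM. In Dctn6, the retained-intron transcript Dctn6-210 held 49.5% and 53.4% of the TPM, and complete coding transcripts held 40.1% and 24.8%. The second program gave 32.0% and 39.3% for Dctn6-210 and 60.9% and 47.7% for complete coding transcripts, and its leading transcript in library 1 was the complete coding Dctn6-201. In Dctn1, the leading transcript Dctn1-203 held 50.8% and 47.0%, and Dctn1-202, with 3426 coding bases against 3792, held 27.6% and 32.0%.

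The partners of the motors were present as well. Of 6 dynein regulators, 5 reached 1 TPM in both libraries, led by Nudc with 156 and 155 TPM, Ndel1 with 56.7 and 56.8 TPM and Nudcd3 with 47.9 and 45.6 TPM. The lowest was Spdl1, which recruits dynein to kinetochores, with 0.15 and 0.14 TPM. Of 14 activating adaptors of dynein, 12 reached 1 TPM in both libraries. The mitochondrial adaptors Trak1 and Trak2 led with 36.5 and 46.8 TPM and with 26.0 and 28.5 TPM, Hap1 had 23.6 and 22.1 TPM, and Bicdl2 had 0 reads. All 18 kinesin adaptors and cargo links were above 1 TPM. Fez1 had 377 and 401 TPM, Arl8b had 124 and 148 TPM, Kifap3 followed, and Grip1 was lowest with 3.44 and 3.44 TPM.

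Complete coding transcripts, protein-coding transcripts with neither end of the coding sequence annotated as missing, held 82.6% and 80.1% of the TPM of all motor genes, and 80.3% and 78.2% in the second program. The share was high in kinesin-4 (93.1% and 92.8%), dynein-2 (94.0% and 92.3%) and the kinesin-1 light chains (91.4% and 91.3%). It was 69.5% and 64.4% in the kinesin-1 heavy chains, 65.1% and 62.7% in kinesin-3, and 14.3% and 14.5% in the dividing-cell kinesins. Of the 47 detected members, 7 had under 50% in complete transcripts, namely Kif5b, Dynll1, Dctn6, Kif22, Kif13b, Kif21b and Kif13a. In the second program there were 8, without Dctn6 and with Dync2h1 and Kif6 added. In the first program Dync1h1 lay just above the line, at 50.2% ± 2.63 (SD, n = 2).

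**Figure D2:**
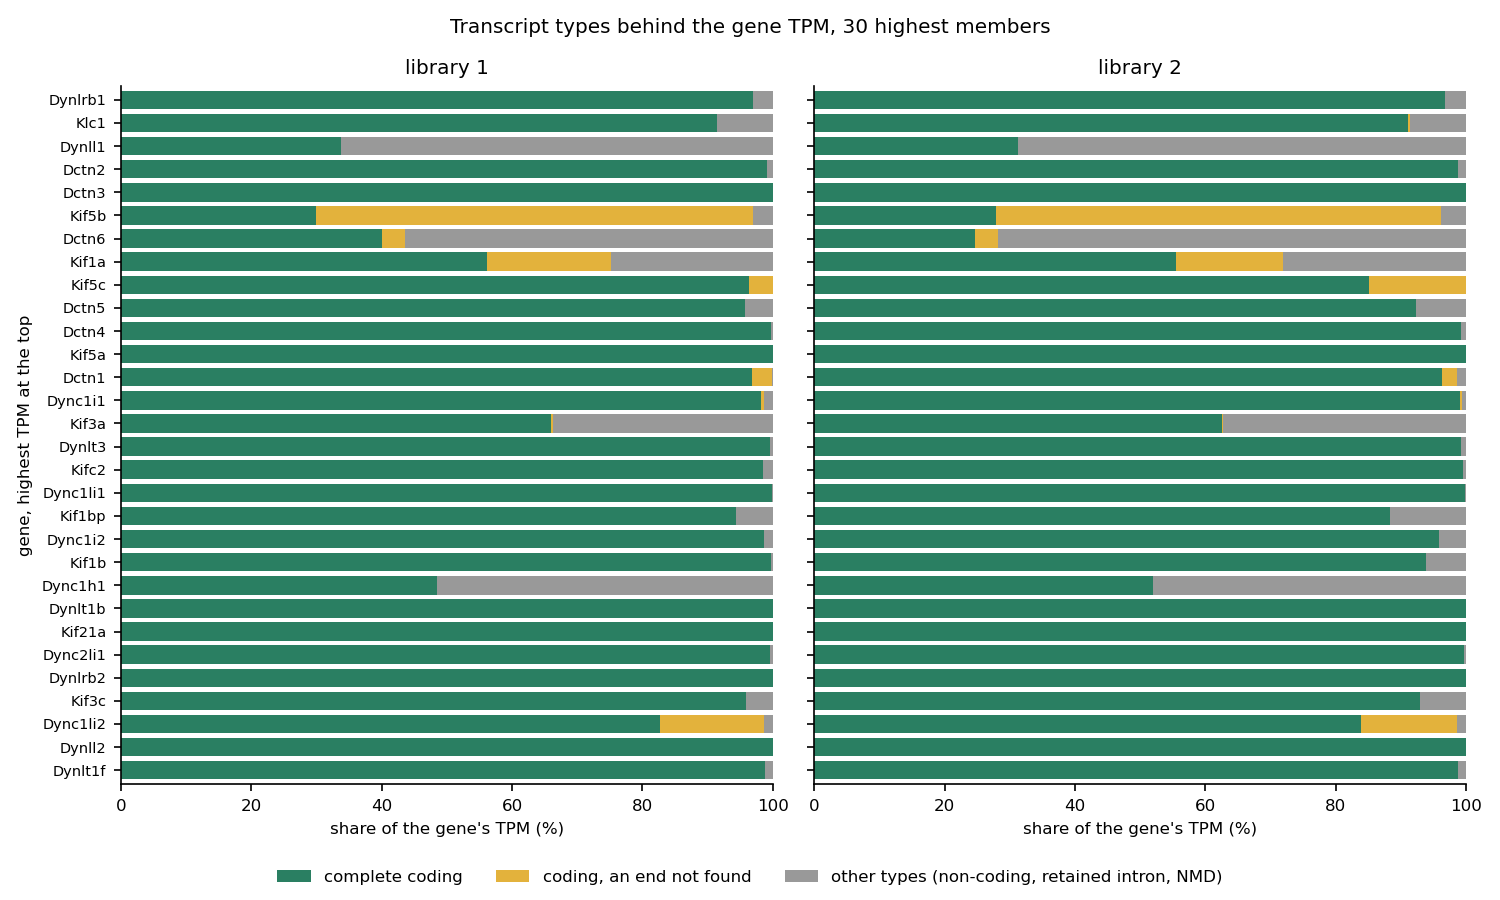
Bars give the percent of each gene's TPM by type of transcript in the first program, for the 30 highest motor genes, in library 1 at left and library 2 at right. Most bars are nearly all complete coding transcripts, while Dynll1, Kif5b, Dctn6, Kif1a, Kif3a and Dync1h1 have large other parts in both libraries.

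Of 39 members with at least 5 TPM, 38 had 2 or more transcripts. The leading transcript was the same in both libraries for 35 of the 38 in the first program and for 36 in the second. The programs named the same leading transcript for 33 in library 1 and 34 in library 2. They differed in both libraries for 2 genes, Kif3c and Dync1i2. The leading transcript held under 70% of the TPM in 18 genes.

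Short alternative coding exons were annotated in several motor genes. The inclusion of a coding exon was taken as the percent of TPM of protein-coding transcripts across its position that include it, so it rests on how each program divided reads among annotated transcripts. Members with a mean of at least 5 TPM were searched. Among their exons of at most 150 bases there were 38 alternative coding exons in 19 genes. Of these, 22 exons in 12 genes were mixed, with inclusion from 5% to 95% in both libraries and both programs, and 21 of the 22 had a length that is a multiple of 3, which keeps the reading frame, as did 33 of all 38. Such counts were not made over all genes, so they describe these members only and do not set motors apart. The annotation fixes which exons are considered, and members of 1 gene share the same transcripts.

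The intermediate chains share an alternative exon of 60 bases (20 codons). It is shown for both genes because its inclusion differed between them, with the exon in capitals and 15 bases of the flanking transcript on each side in lower case, from the GENCODE M21 transcripts. The 60 bases were identical at 76.7% of positions. An exon of 18 bases in Dync1i2 is printed with them. The positions are chr6:5784439-5784498 for Dync1i1, and chr2:71233649-71233708 and chr2:71227827-71227844 for Dync1i2, all on the plus strand of mm10.
Dync1i1 exon of 60 bases: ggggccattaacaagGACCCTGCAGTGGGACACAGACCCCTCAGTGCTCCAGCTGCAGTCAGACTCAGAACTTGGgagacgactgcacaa
Dync1i2 exon of 60 bases: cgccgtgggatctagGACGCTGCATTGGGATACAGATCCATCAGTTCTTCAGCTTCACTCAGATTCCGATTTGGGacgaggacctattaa
Dync1i2 exon of 18 bases: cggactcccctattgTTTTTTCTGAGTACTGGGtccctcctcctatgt

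In Dync1i1 the exon of 60 bases was included in 91.8% of TPM in library 1 and 88.7% in library 2. In Dync1i2 it was included in 53.2% and 54.6%, and the second program gave 61.3% and 61.0%. The ranges of the 2 genes did not overlap in either program. The exon of 18 bases of Dync1i2 was included in 34.5% and 32.1%, and in 40.9% and 39.6% by the second program. Accordingly, the first program put 43.2% and 41.4% of Dync1i2 in Dync1i2-201, which lacks both exons, and 34.0% and 30.8% in Dync1i2-208, which has both. The second program reversed this order, with 33.9% and 30.8% in Dync1i2-201 and 37.4% and 32.6% in Dync1i2-208. In Dync1i1, 63.3% and 62.4% was Dync1i1-204, and 26.0% and 25.5% was Dync1i1-203, which lacks 33 coding bases at chr6:5769701-5769733.

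The transport kinesins have exons that add only a few codons. They are shown for Kif3a (9 bases, chr11:53590717-53590725, plus strand), Kif1a (24 bases, chr1:93026832-93026855, and 27 bases, chr1:93065552-93065578, minus strand) and Kif21a (39 bases, chr15:90949006-90949044, and 21 bases, chr15:90964975-90964995, minus strand).
Kif3a exon of 9 bases: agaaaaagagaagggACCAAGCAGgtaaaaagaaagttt
Kif1a exon of 24 bases: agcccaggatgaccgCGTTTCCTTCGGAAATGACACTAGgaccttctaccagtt
Kif1a exon of 27 bases: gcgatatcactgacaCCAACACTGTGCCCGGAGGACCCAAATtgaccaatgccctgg
Kif21a exon of 39 bases: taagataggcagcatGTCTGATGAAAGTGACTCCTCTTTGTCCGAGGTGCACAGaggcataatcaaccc
Kif21a exon of 21 bases: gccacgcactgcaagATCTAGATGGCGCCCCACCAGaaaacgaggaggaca

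The Kif3a exon of 9 bases was included in 40.3% and 42.4% of TPM, and in 44.9% and 56.3% by the second program. In Kif1a the exon of 24 bases was included in 63.4% and 67.7%, and that of 27 bases in 20.9% and 25.6%. The second program gave 56.9% and 56.0%, and 26.0% and 24.7%. For both kinesins, TPM was thus assigned to forms with and without these codons in each library. For Kif21a, as for the Kif1a exon of 24 bases, the programs differed more than the libraries did. The exon of 39 bases was included in 73.7% and 77.3% by the first program and 90.7% and 90.1% by the second, and that of 21 bases in 43.7% and 39.5% against 33.3% and 31.6%. Accordingly Kif21a-205 held 56.3% and 60.5% in the first program and 66.4% and 67.9% in the second.

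Dctn1 has alternative exons in the basic segment that follows its microtubule-binding domain, and another further along. That of 21 bases (chr6:83183936-83183956) and that of 15 bases (chr6:83197319-83197333) are shown, both on the plus strand.
Dctn1 exon of 21 bases: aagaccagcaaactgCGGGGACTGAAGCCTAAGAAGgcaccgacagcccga
Dctn1 exon of 15 bases: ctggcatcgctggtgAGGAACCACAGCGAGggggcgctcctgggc

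The exon of 21 bases was included in 91.6% and 91.5% of spanning TPM, whereas that of 15 bases was included in 52.5% and 48.8%. The second program gave 89.5% and 87.9%, and 53.5% and 49.6%. In Dync1li2, an exon of 42 bases was included in 83.7% and 85.0%, and in Dctn4 one of 21 bases in 10.3% and 18%.

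**Figure D3:**
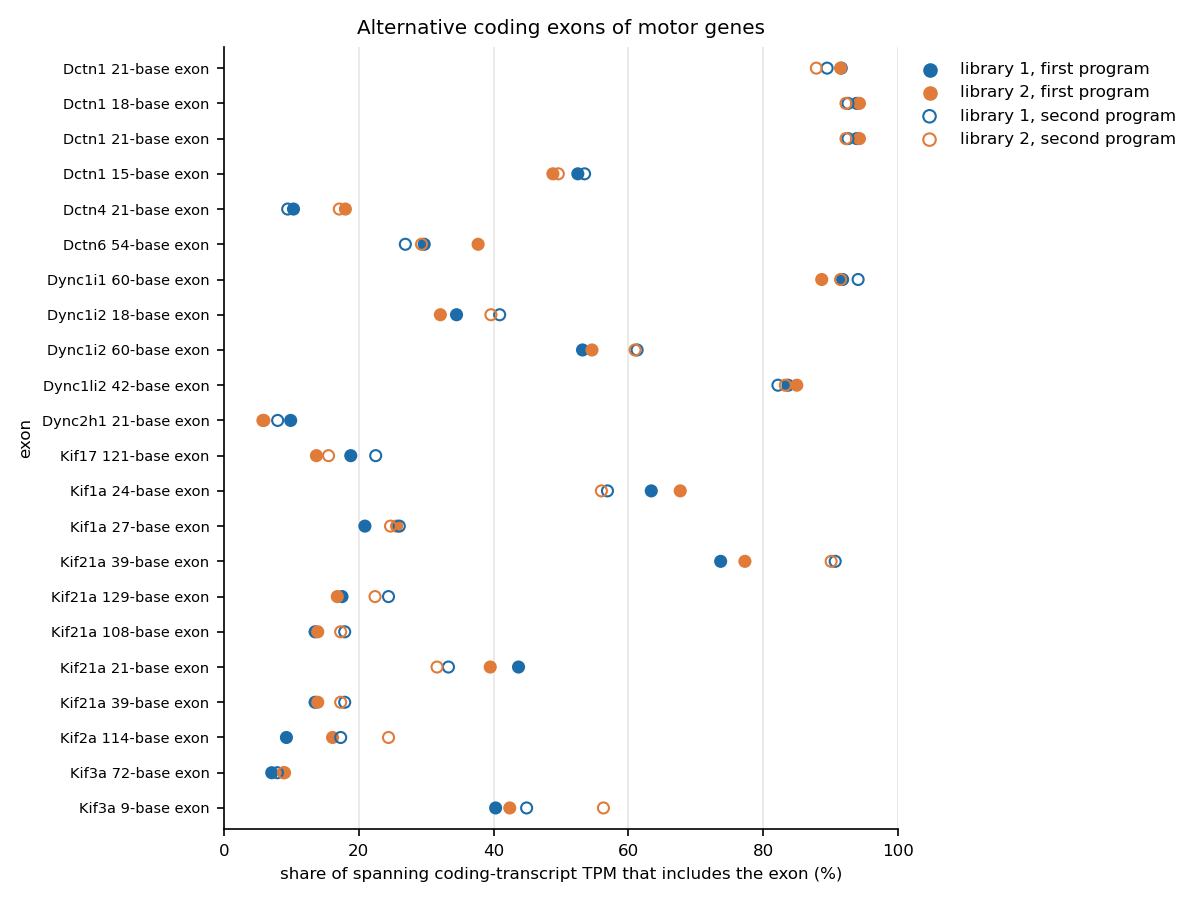
Each row is 1 of the 22 mixed coding exons, and the horizontal axis gives the percent of spanning coding-transcript TPM that includes it. Filled circles are the first program and open circles the second, blue for library 1 and orange for library 2. In most rows the 4 points lie close together, and the Kif21a exon of 39 bases near 75% and 90% shows the largest gap between programs.

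The libraries were compared by the log2 ratio of scaled expected counts, library 1 over library 2, for the 48 members whose mean count reached 50. The ratio measures the spread between replicates and carries no test of a condition. Of the 48 members, 1 passed an absolute log2 ratio of 1, or 2.08%, against 2.42% of all 14078 genes compared. The median log2 ratio of the members was 0.0269, against -0.00496 for all genes, and their median absolute log2 ratio was 0.160, against 0.159. At an absolute log2 ratio of 0.5 there were 5 members (10.4%), against 10.5% of all genes. Of these, 4 were higher in library 1, where 7.12% of all genes passed, and 1 in library 2, where 3.40% passed. With the minimum mean count lowered to 10, 4 of 60 members passed 1, against 5.27% of all genes. All 4 were higher in library 1, where 3.65% of genes passed, against 1.62% in library 2. The members thus varied between the libraries about as much as other genes did, and 36 of the 48 lay within 0.25 on the log2 scale.

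The member past the limit was Dynlrb2 (chr8:116504974-116515915, plus strand), with 398 expected counts in library 1 and 184 in library 2. Its log2 ratio was 1.12, with a 95% Clopper-Pearson interval from 0.86 to 1.38 that covers counting error only. Of all genes, 1.98% passed the limit in this direction and 0.433% in the other. Its paralogue Dynlrb1 had a log2 ratio of 0.04. Dynlrb2 is known to be expressed in ciliated cells. Rsph1, a radial spoke gene of motile cilia among the ependymal markers, had a log2 ratio of 1.41 and was the one ependymal marker past the limit, with 18.3 and 6.69 TPM. The highest ependymal markers were Rarres2 with 56.0 and 44.5 TPM, Tmem212 with 35.8 and 22.9 TPM and Ccdc153 with 14.4 and 11.3 TPM, and the lowest was Dnah5, which the axonemal dynein list also holds, with 0.34 and 0.29 TPM. The part of ependymal or choroid plexus RNA in the Dynlrb2 difference was not tested.

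Other motors with a known role in cilia had ratios in both directions. Kif9 had a log2 ratio of 0.39 (interval 0.07 to 0.71), with 2.56 and 2.00 TPM. Kif6 had 0.15 (-0.21 to 0.51), with 1.87 and 1.63 TPM. With mean counts under 50, Kif27 had 0.89 (0.27 to 1.58), Kif19a had 0.44 (-0.29 to 1.21) and Kif7 had -0.33 (-1.04 to 0.31). Kif24, grouped above with the dividing-cell kinesins, had 1.42 (0.53 to 2.45) from 38 and 14 expected counts. The second program gave Kif24 171 and 147 estimated counts. Kif17 had -0.09 (-0.29 to 0.10), Kif3a -0.08 (-0.14 to -0.03) and Kif3b 0.22 (0.07 to 0.37). The dynein-2 chains Dync2h1 and Dync2li1 had 0.16 (0.03 to 0.30) and 0.14 (0.02 to 0.27). The intraflagellar transport list had a median log2 ratio of 0.228, with 14 of 18 genes higher in library 1, and the axonemal dyneins had 0.201 over 9 genes compared. No gene of these 2 lists passed 1 among those compared. Of axonemal dyneins with mean counts under 50, Dnah2 had 1.44 and Dnah11 had 1.55, while Dnah8 had -0.65.

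The windows around gene starts were also searched for GTTGCC (reverse complement GGCAAC), a letter set of the X-box bound by RFX factors at ciliary genes. It cannot overlap the letters searched above. It was found for 16 of the 51 matched members (31.4%), against 14.1% of 27025 genes. The matches were Dynlrb2, Dynll1, Dync1i1, Dync1i2, Dync2h1, Kif3a, Kif3c, Kif17, Kif1a, Kif16b, Kif2a, Kif9, Klc3 and the dividing-cell kinesins Kif18a, Kif23 and Kif24, so members with and without a known role in cilia were among them. The Dynlrb2 stretch lies at chr8:116504952-116504981 on the plus strand (RefSeq, GRCm38.p6).
Dynlrb2: acttcctgcctgGTTGCCtagcaacggggg

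The next largest differences were in the Dynlt1 copies and low members. Dynlt1a had a log2 ratio of 0.57 (interval 0.41 to 0.73) and Dynlt1b one of -0.60 (-0.76 to -0.43), in opposite directions, for genes whose reads cannot be told apart over most of the coding sequence. Kif16b, a kinesin-3 of endosomes, had 0.54 (0.25 to 0.84), and Klc3 had 0.53 (-0.03 to 1.12). Dctn5 (144 and 107 TPM) and Dync1li2 (22.2 and 16.0 TPM) had 0.44 each, with intervals from 0.38 to 0.49 and from 0.35 to 0.52. The neuronal motors differed little, with log2 ratios of 0.20 for Kif5a, 0.03 for Kif1a, -0.14 for Kif5c, -0.10 for Klc1 and -0.23 for Dync1i1. Markers of neurons had a median log2 ratio of -0.183.

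By class, the median log2 ratio ran from -0.152 in kinesin-4 to 0.154 in dynein-2 among classes with at least 2 members compared. The further dynactin subunits had a median of -0.0672, the dynein regulators -0.0242, the activating adaptors 0.0878 and the kinesin adaptors -0.0250, and none of their genes passed 1. The cell division list had 0.138 over 5 genes compared.

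**Figure D4:**
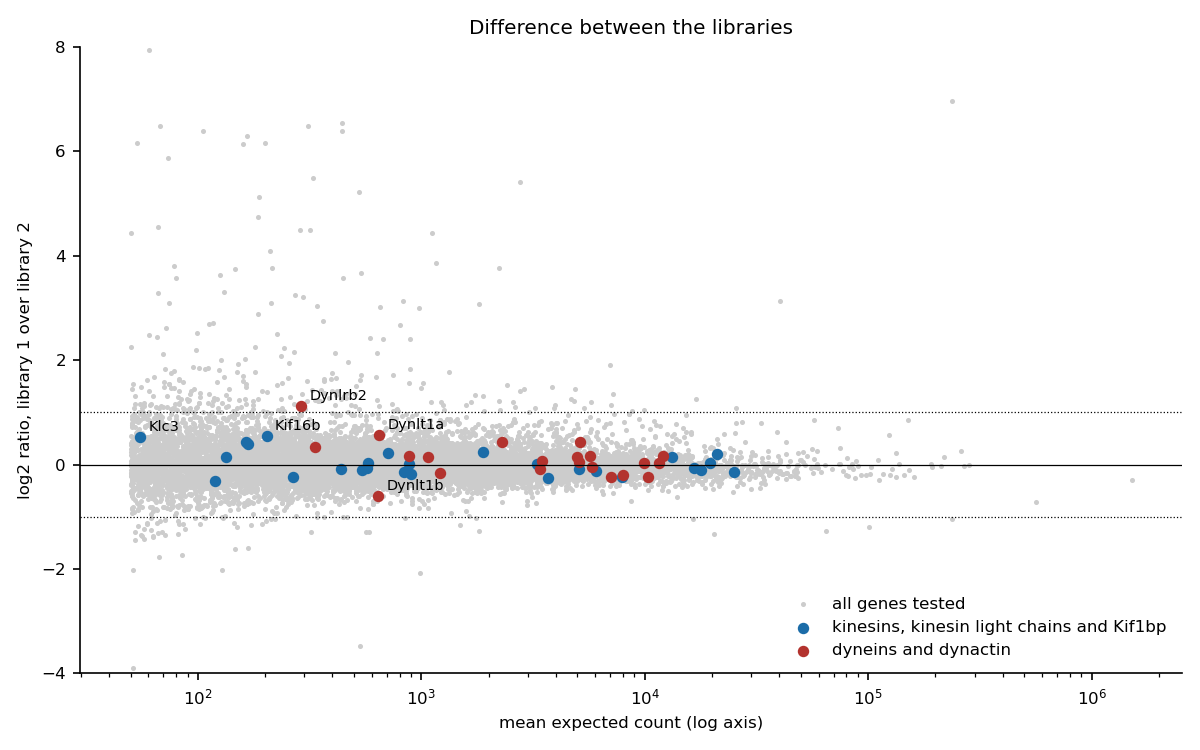
Each grey point is 1 of 14078 genes, with the mean expected count on a log axis and the log2 ratio of library 1 over library 2 on the vertical axis; 7 genes lie outside the plotted range. Blue points are kinesins, kinesin light chains and Kif1bp, red points dyneins and dynactin, and dotted lines mark ratios of 1 and -1. Dynlrb2 is the only motor gene beyond a dotted line.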

How the data were processed

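Per gene, the deposited tables give an expected count (an estimate that need not be whole), TPM and FPKM, in the column layout of RSEM. The deposited transcript tables hold the same per transcript, and a second set holds estimated counts and TPM in the layout of kallisto. The mm10 build and GENCODE M21 are named in a deposited text file and, for the build, in the labels. The programs, their versions and any use of strand were not given in the sources used here.

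The 2 libraries held 38921671 and 39499357 expected counts, and 55151500 and 55608190 estimated counts in the second program. Reads amplified by PCR and lacking molecular identifiers can be copies of one molecule, so intervals and limits for 0 reads cover counting error only. Rows that name no gene held 2.31e-05% and 1.64e-05% of counts and were left out. Levels are deposited TPM. Second-program TPM was summed per gene. Log2 ratios used expected counts scaled by TMM (edgeR 4.0.16, R 4.3.3) with a prior count of 0.5 and a minimum mean count of 50, and 95% Clopper-Pearson intervals. The limit was an absolute log2 ratio of 1. Ratios, intervals and calls were checked on simulated data. The other steps used Python 3.11.15, pandas 2.3.3 and scipy 1.17.1. Transcript types and exons came from GENCODE M21 by identifier. Alternatives were FPKM, the second program, other scalings, count minimums, prior counts and limits, single libraries, and leaving out the Dynlt1 copies or incomplete transcripts.

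The members and gene lists were chosen with earlier results of these data known. Values are printed for the 3 highest members of each class, all members of classes of 4 or fewer, those past the limit, those just inside and outside 1 TPM, those whose programs differ by 1 log2 unit in both libraries, and those with 0 reads. Transcript shares are printed for up to 12 members above 5 TPM whose leading transcript differs between programs or holds under 70%, and for Kif1b, Klc1, Dync1i1 and Dync1i2. Of each list the 3 highest, the lowest and those past the limit are named, except that lists of neurons, oligodendrocytes, astrocytes, microglia and choroid plexus are given by sums with their leading genes. Other members were named after their values were seen.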

Additional observations from a re-analysis of the deposited data

How the results depend on the processing

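The summed level of the motor genes, 3571 TPM, moved by more than its SD to 3036 TPM in the second program, to 2801 as FPKM, to 3513 TPM without the Dynlt1 copies and to 2904 TPM when only complete coding transcripts were counted, an alternative chosen after seeing the data. Single libraries gave 3555 to 3586 TPM. All 12 classes kept their rank in the second program, and 8 of 12 did by complete coding transcripts. FPKM is TPM times 1 factor per library, so its sum differs in unit and its class order within a library could not change. Without the Dynlt1 copies, dynein light chains fell only from 1080 to 1022 TPM, above dynactin at 897 TPM. The kept ranks in these 2 settings are therefore no check of the order. The number of members past an absolute log2 ratio of 1 was 1 as reported and 1 under the other scalings, a minimum mean count of 100, a prior of 2, an added adjusted p, the second program and TPM ratios. It rose to 4 of 60 at a minimum mean count of 10 (5.27% of all genes), to 6 of 67 with no minimum (25.6% of all genes), and to 5 at a limit of 0.5. The 3 added at a minimum of 10 were Kif24, Kif11 and Dynlt1c, and Kifc1 and Kif18b were added with none. The median log2 ratio of members lay between -0.00171, in the second program, and 0.0408, with library totals, so its sign is not fixed. The median share of the leading transcript was 74.5%, and single libraries gave 71.1% to 78.4%. No paired analysis was possible because there was 1 group. Depth limits members under about 50 reads, whose ratios have wide intervals, and with 2 libraries from 1 donor identifier each SD rests on 2 values.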
